A study of Mus musculus with 4 samples.

Results

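Omp, the gene of olfactory marker protein, and Capn5, the calpain gene that hosts it, were followed in RNA from sorted mature olfactory sensory neurons of mice. Members were the rows of the authors' deposited table whose symbol is Omp or Capn5, alone or joined with another symbol. The table of 28168 loci holds 2 such rows, 1 for each gene, and no row joins them with another symbol. The series compares the transgenic line Nd1, whose mice express double-stranded RNA encoded in the genome, with control mice, and its design text describes the lines as showing neurodegeneration. There are 4 libraries, 2 of Nd1 and 2 of control mice, described by the header of the table as littermates.

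The alleles matter here, because the genetic design sits at Omp itself. Each Nd1 library came from mice with 1 copy of Nd1, 1 Omp allele carrying tTA behind an internal ribosome entry site (IRES) and 1 Omp allele carrying GFP behind an IRES. The control of replicate 1 had 1 copy of Nd1, no tTA and 1 Omp allele with GFP. The control of replicate 2 had no Nd1, 1 Omp allele with tTA and 1 with GFP. The mice of replicate 1 were 212 days of age in both groups, and those of replicate 2 were 87 days of age. Taking both inserts as alleles of the same gene, tTA stood on 2 of 4 Omp alleles in the Nd1 group and on 1 of 4 in the control group, and GFP on 2 of 4 in each. No Omp allele was free of an insert in the Nd1 group, against 1 of 4 in the control group. The labels name GFP as the only fluorescent reporter and do not state which fluorescence was gated or how many animals entered a library.

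OMP is a small cytoplasmic protein made in very large amounts by mature olfactory sensory neurons, and its gene is the standard mark of their maturity. In mice without it, odour responses rise and recover more slowly, and the protein has been linked to the buffering of cyclic AMP, to calcium extrusion and to binding of Bex proteins. An IRES placed behind a coding sequence lets a second protein be translated from the same messenger RNA, so tTA, a tetracycline-controlled transcriptional activator, and GFP are made where Omp is transcribed. Calpain 5, the product of Capn5, is a calcium-activated cysteine protease that lacks the calmodulin-like domain of the classical calpains, and its human counterpart is mutated in an inherited inflammatory eye disease.

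In the GENCODE M21 annotation, which is of another genome build than the table, both genes lie on the same strand. Omp is a gene of 1 exon, 2144 bases long, with 489 coding bases. In 2 of 5 annotated Capn5 transcripts it lies inside intron 3, and the nearest exons of these transcripts are 6309 bases upstream and 7390 bases downstream of it. No annotated Capn5 exon overlaps Omp. Another annotated Capn5 transcript, of 3 exons, ends 13 bases upstream of the first base of Omp. The deposited table lists both genes with the same span, mm9 chromosome 7, 105270075 to 105327920, which is 57846 bases long and holds the whole host gene. No promoter entry for Omp or Capn5 was at hand, and no sequence is printed.

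Omp was far lower in Nd1 neurons and Capn5 was higher. Omp stood at 605 FPKM in the Nd1 group and 4087 FPKM in the control group, a 6.75-fold lower level. FPKM is a fragment count corrected for the length of the transcript and for the size of the library, and each value is the authors' pooled value of 2 libraries, so no spread between libraries can be given. The log2 ratio of Omp was -2.755, and its q-value is listed as 0 in the authors' deposited table, below the threshold of 0.05 used for every call. In bulk RNA of this kind, fewer mature neurons among the sorted cells and less Omp RNA per neuron cannot be told apart. The effect of the Omp alleles cannot be told apart from that of carrying Nd1 and tTA together either, because no pooled value separates them. The control group pools 1 library with Nd1 and no tTA and 1 with tTA and no Nd1.

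Capn5 rose to 34.2 FPKM in the Nd1 group, against 13.2 FPKM in the control group, a 2.59-fold higher level. Its log2 ratio was 1.37, and the authors' deposited table again lists a q-value of 0. As background, 19.2% of the 14841 tested loci were called lower in Nd1 and 15.1% higher, so a call in either direction is common in this comparison. The sizes of the changes are less common. Of 13692 tested loci above 0 in both groups, odorant receptors left out, 47 had a lower log2 ratio than Omp and 837 a higher one than Capn5. The median log2 ratio of these loci was -0.041, with quartiles at -0.24 and 0.24.

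The gap between host and guest gene narrowed from both sides. Omp was 17.7 times as high as Capn5 in Nd1 neurons and 309 times as high in control neurons. Expressed the other way, Capn5 reached 5.65% of the Omp level in Nd1 and 0.323% in control. Capn5 gained 20.97 FPKM, little beside what Omp lost, and the summed level of both genes was 640 FPKM in Nd1 and 4101 FPKM in control. FPKM is scaled by transcript length, so such ratios between genes are only roughly ratios of transcripts. The length of Omp RNA with an insert and the assignment of reads within the shared span were not examined.

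Relative to all other transcripts, Omp lost its place at the top of the control profile. It ranked 46th of all loci in Nd1 and 5th in control, where only 4 loci without a symbol stood above it. Of these, 3 lie on the mitochondrial chromosome and 1 on chromosome 1. The chromosome 1 locus had nearly the values of the mitochondrial locus at 7766 to 8607. They stood at 5435 and 5554 FPKM in control and at 4133 and 4200 FPKM in Nd1. Whether the 2 share reads was not tested. Omp supplied 0.169% of the summed FPKM of all loci in Nd1 and 1.04% in control. The highest locus with a symbol in Nd1 was Gm581, at 3368 FPKM beside 3815 FPKM in control, and it was not called. The 4 unnamed loci were not called either, with levels of 3513 to 4375 FPKM in Nd1 and 4277 to 5554 FPKM in control. Capn5 ranked 2284th in Nd1 and 5903rd in control.

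The change of Omp was extreme for a gene of its level. Odorant receptors left out, 21 tested loci stood at 1000 FPKM or more in control. Of these, 6 were called lower in the authors' deposited table, and no other of them had so low a log2 ratio as Omp. The median over these 21 was -0.40. Of 486 tested loci of at least 100 FPKM in control, odorant receptors left out, 32.1% were called lower and 12.6% higher, and again none stood below Omp. Among the odorant receptor genes, by contrast, its change was of ordinary size. Over 1012 receptor loci above 0 in both groups the median log2 ratio was -3.17, and 601 of them, 59.4%, had a lower log2 ratio than Omp. Capn5 stood near the upper end of its own level range, chosen after its value was seen. The 2560 tested loci between 10 and 20 FPKM in control were taken above 0 in both groups, odorant receptors left out. Of these, 25 had a higher log2 ratio than Capn5. In the same band 1 locus had a lower log2 ratio than Omp, whose own control level lies far above that band.

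**Figure D1:**
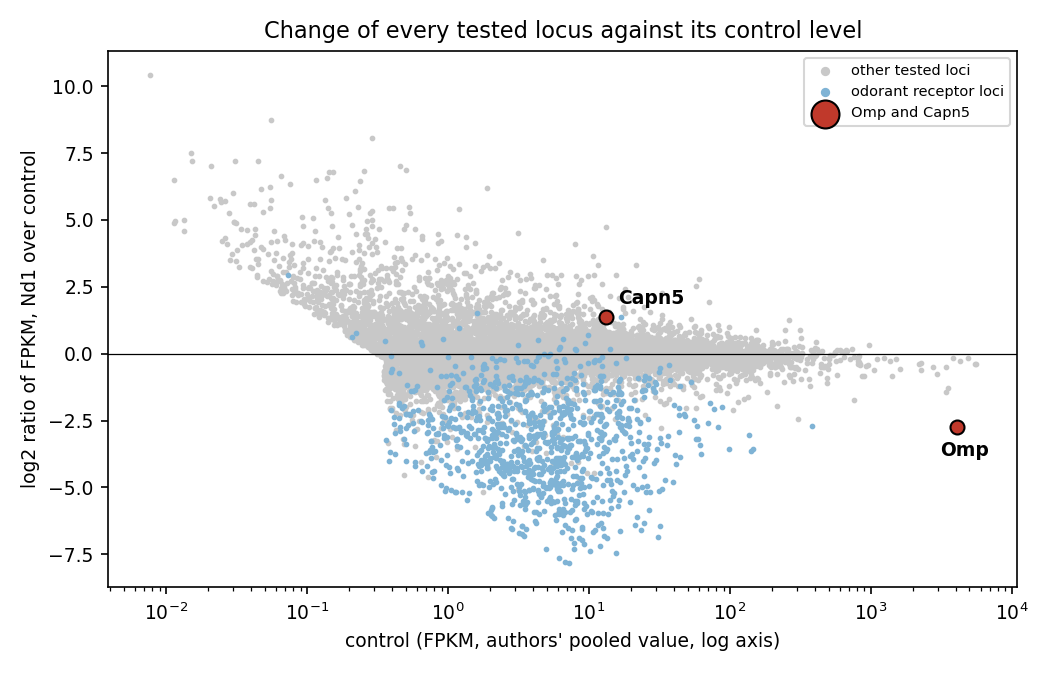
Each point is a tested locus above 0 in both groups, with its control level in FPKM on a log axis and its log2 ratio, Nd1 over control, on the vertical axis. Omp lies at -2.755 far below all other loci of its level, and Capn5 at 1.37 lies along the upper edge of the loci of its level.

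The loci around Omp were called in both directions. Within 0.5 Mb on either side of the span, 18 loci are listed, of which 13 were tested, 3 were called higher, 2 were called lower and 8 were not called. The 5 called loci, Omp and Capn5 themselves included, are 38.5% of those tested, near the 34.4% over all tested loci. Of the 12 tested loci other than Omp, 8 had a negative log2 ratio. The median over all tested loci of at least 0.5 FPKM on average was itself negative, at -0.069. The share of negative ratios over all tested loci was not counted, so no lean of the region is read from this. Here the called loci were Omp and Myo7a, which fell, and Capn5, LOC330599 and Pak1, which rose, in the authors' deposited table. LOC330599 is listed with the very same span as Omp and Capn5, and stood at 5.81 FPKM in Nd1 and 3.75 FPKM in control (log2 ratio 0.63, q = 0.0194 in the authors' deposited table). Because the labels' library protocol is not stated to keep strand, reads from overlapping transcripts of opposite strands may not be separable in this span, and the strand of LOC330599 was not examined.

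Myo7a, the gene of an unconventional myosin of hair cells and photoreceptors, lies next to Capn5. It fell to 5.39 FPKM in Nd1, against 13.3 FPKM in control, with a log2 ratio of -1.30 and a q-value listed as 0 in the authors' deposited table. Pak1, a kinase activated by Rac and Cdc42, rose to 49.95 FPKM in Nd1, against 31.0 FPKM in control (log2 ratio 0.69, q = 1.97e-14 in the authors' deposited table). From Pak1 through Myo7a to the shared span, the calls thus ran higher, lower and then in both directions.

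The other tested neighbours carried no call. Clns1a, which takes part in assembly of splicing particles, stood at 25.7 FPKM in Nd1 and 30.8 FPKM in control. The row 2210018M11Rik stood at 32.4 FPKM in Nd1 and 36.8 FPKM in control (q = 0.0598 in the authors' deposited table). Rsf1, a chromatin remodelling gene, has 2 tested rows, the larger at 8.37 FPKM in Nd1 and 8.47 FPKM in control, and the smaller at 0.939 FPKM in Nd1 and 1.32 FPKM in control. The aquaporin gene Aqp11 had 4.35 FPKM in Nd1 and 4.92 FPKM in control, and the ceramidase gene Acer3 had 2.53 FPKM in Nd1 and 2.55 FPKM in control. Tsku, a secreted proteoglycan gene, had 2.01 FPKM in Nd1 and 2.50 FPKM in control. Gucy2d, the guanylate cyclase of a separate, cyclic GMP-using class of olfactory neurons, had 0.914 FPKM in Nd1 and 0.810 FPKM in control. The remaining 5 loci, namely B3gnt6, Gdpd4, Lrrc32, the lowest row of Rsf1 and 1 locus without a symbol, were not tested, and the highest value among them was 0.241 FPKM, of B3gnt6 in Nd1.

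**Figure D2:**
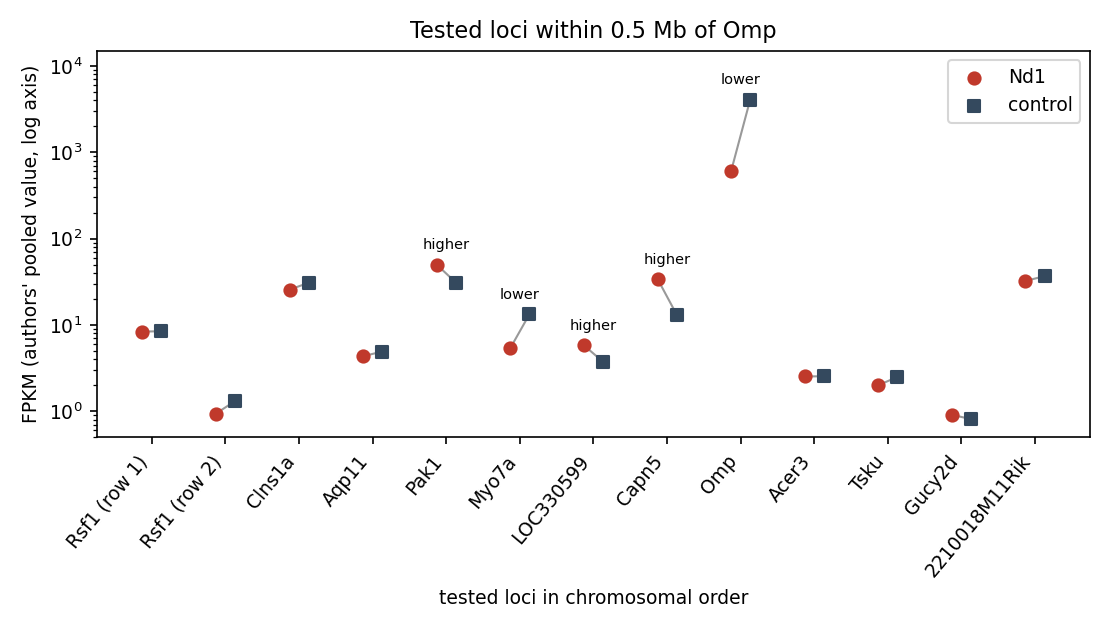
FPKM on a log axis of the 13 tested loci within 0.5 Mb of Omp, with Nd1 as circles, control as squares and the authors' call above each called locus. LOC330599, Capn5 and Omp share a listed span, so their order among themselves has no meaning. Omp is the highest locus of the region in both groups, and its fall is larger than that of Myo7a, while Capn5, LOC330599 and Pak1 are higher in Nd1.

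Omp was then read beside other markers of mature olfactory sensory neurons, which make the cilia and the odour transduction machinery. Of 21 tested markers in this list 16 were called lower, Omp included, 1 was called higher and 4 were not called in the authors' deposited table. Over all tested loci 19.2% were called lower and 15.1% higher. Over the 486 loci of at least 100 FPKM in control these shares were 32.1% and 12.6%. The median log2 ratio was -0.68, or -0.58 without Omp, beside -0.069 over all tested loci of at least 0.5 FPKM on average. Omp had the lowest log2 ratio of the list. S100a5, a calcium-binding protein of these neurons, fell to 1461 FPKM in Nd1, against 3542 FPKM in control. Stoml3, a stomatin-like protein of the cilia, fell to 1254 FPKM in Nd1, against 3425 FPKM in control. The log2 ratios of these, -1.28 and -1.45, were the next lowest among tested markers.

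Because Omp had the lowest log2 ratio of the list, its level relative to each of the other 22 markers was necessarily lower in Nd1. For Stoml3, Omp had 0.483 times its FPKM in Nd1 and 1.19 times in control. For S100a5 these ratios were 0.414 in Nd1 and 1.15 in control. The ratio of Omp to Adcy3, the adenylate cyclase of odour transduction, was 1.22 in Nd1 and 4.60 in control. Against Cnga2, a subunit of the channel opened by cyclic AMP, it was 1.25 in Nd1 and 4.76 in control. The smallest shift was against Ric8b, a G protein exchange factor, at 2.21 in Nd1 and 5.13 in control, named after its value was seen. Ric8b stood at 273 FPKM in Nd1 and 796 FPKM in control, and its test failed in the authors' deposited table. The marker called higher was Ncam2, an axonal cell adhesion molecule, at 68.5 FPKM in Nd1 and 51.9 FPKM in control. Those tested without a call were the receptor transporters Rtp1 (473 FPKM in Nd1 and 566 FPKM in control) and Rtp2 (333 FPKM in Nd1 and 386 FPKM in control), the glutamate transporter Slc17a6 (130.4 FPKM in Nd1 and 134 FPKM in control) and Cyp4f15 (0.331 FPKM in Nd1 and 0.423 FPKM in control).

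**Figure D3:**
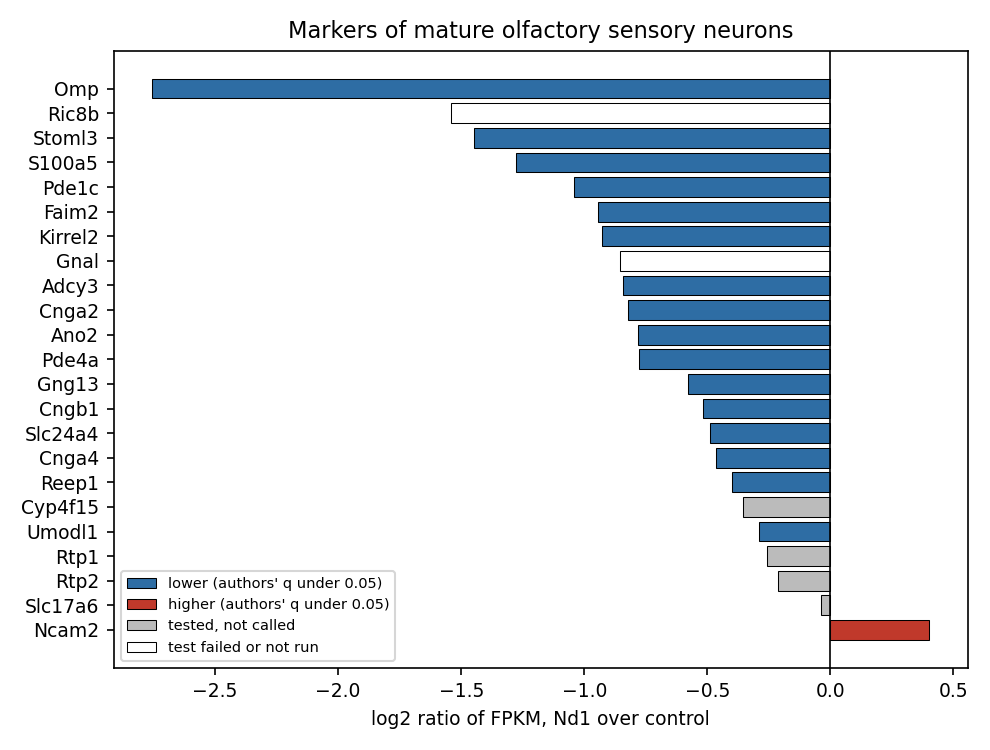
Log2 ratio of FPKM, Nd1 over control, for the 23 markers of mature olfactory sensory neurons found in the table, coloured by the authors' call. Omp has the longest bar, at -2.755, followed by Ric8b, whose test failed, and by Stoml3 at -1.45. Ncam2 is the only marker with a positive ratio.

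Genes whose change came nearest to that of Omp were sought among the 486 abundant loci, by the absolute difference of the log2 ratio. With 1 pooled value per group this likeness rests on a single contrast. The nearest was Mslnl, at a log2 ratio of -2.45, or 0.31 away from Omp, with 55.3 FPKM in Nd1 and 302 FPKM in control. Next came Sema7a, a membrane-anchored semaphorin of olfactory axons, at -2.10, with 24.3 FPKM in Nd1 and 104 FPKM in control. Nqo1, a quinone reductase that marks a dorsal zone of olfactory neurons, followed at -1.96, with 54.9 FPKM in Nd1 and 214 FPKM in control. Further genes among the 10 nearest were Tmbim6, a cell death suppressor of the endoplasmic reticulum (-1.72), Herpud1, an endoplasmic reticulum stress gene (-1.68), Lrrc3b (-1.64), Stoml3 (-1.45), Bpifa1, a secretory product of nasal glands (-1.44), and S100a5 (-1.28). No other of the 486 loci stood below Omp, so the 10 nearest are those with the lowest log2 ratios after it. That all 10 were called lower in the authors' deposited table therefore follows largely from the choice. Their log2 ratios run from 0.31 to 1.48 away from that of Omp. Only Stoml3 and S100a5 among them exceeded 1000 FPKM in control.

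Transcription factors known to act at the Omp promoter, listed together with partners of theirs, were mixed in direction. The Ebf proteins, first found as the olfactory factor Olf-1, bind sites upstream of Omp and many other olfactory genes, Lhx2 and Emx2 bind homeodomain sites, and nuclear factor I proteins bind near the Omp gene. Of 11 factors 8 were tested, of which 3 were called lower, 2 were called higher and 3 were not called in the authors' deposited table. Over all tested loci 19.2% were called lower and 15.1% higher. The median log2 ratio of the factors was -0.14. The log2 ratios of all 11 lay between -0.55 and 0.76, far from that of Omp.

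Among the Ebf genes only Ebf1 was tested, and it rose to 166 FPKM in Nd1, against 108 FPKM in control (log2 ratio 0.61, q = 1.14e-06 in the authors' deposited table). For the others the test failed. Ebf2 stood at 215 FPKM in Nd1 and 210.2 FPKM in control, Ebf3 at 233 FPKM in Nd1 and 257 FPKM in control, and Ebf4 at 154 FPKM in Nd1 and 205 FPKM in control. Emx2 also rose, to 66.7 FPKM in Nd1, against 39.5 FPKM in control. Lhx2 fell to 172 FPKM in Nd1, against 227 FPKM in control (log2 ratio -0.40). Nfix fell to 28.0 FPKM in Nd1, against 40.9 FPKM in control, and Nfib to 17.6 FPKM in Nd1, against 19.3 FPKM in control (q = 0.0202 in the authors' deposited table). The 3 without a call were the Lhx2 cofactor Ldb1 (84.7 FPKM in Nd1 and 93.2 FPKM in control), the Ebf partner Zfp423 (6.40 FPKM in Nd1 and 8.17 FPKM in control) and Nfia (3.07 FPKM in Nd1 and 2.99 FPKM in control).

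Capn5 was the second most abundant gene of the calpain family in Nd1 neurons. In control neurons Capn7, Capn10 and Solh also stood above it. Of 11 tested family members 4 were called higher, Capn5 included, 3 were called lower and 4 were not called in the authors' deposited table. Over all tested loci 15.1% were called higher and 19.2% lower. The median log2 ratio of the family was 0.093. Capns1, the small regulatory subunit of the classical calpains, was the most abundant and rose to 44.98 FPKM in Nd1, against 34.4 FPKM in control (q = 0.0249 in the authors' deposited table). The classical large subunit gene Capn2 rose to 6.26 FPKM in Nd1, against 1.35 FPKM in control, and Capn8, a calpain best known from the stomach, to 5.17 FPKM in Nd1, against 1.36 FPKM in control. The log2 ratios of Capn2 and Capn8, 2.22 and 1.93, were larger than that of Capn5.

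The falls were those of Capn7 (q = 0.0242), Solh (q = 0.0185) and Capn6 (q = 4.97e-05) in the authors' deposited table, so that 1 in place of 3 passed at q under 0.01. Capn7, a calpain with microtubule-interacting and trafficking domains, stood at 17.9 FPKM in Nd1 and 22.0 FPKM in control. Solh, a zinc-finger calpain, stood at 13.8 FPKM in Nd1 and 16.4 FPKM in control. Capn6, which lacks the catalytic cysteine, stood at 0.561 FPKM in Nd1 and 1.40 FPKM in control. No call was made for Capn10 (21.8 FPKM in Nd1 and 21.4 FPKM in control), for calpastatin, the calpain inhibitor encoded by Cast (4.85 FPKM in Nd1 and 4.23 FPKM in control), for Capns2 (1.85 FPKM in Nd1 and 1.74 FPKM in control) or for Capn1, the other classical large subunit (0.592 FPKM in Nd1 and 0.747 FPKM in control).

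**Figure D4:**
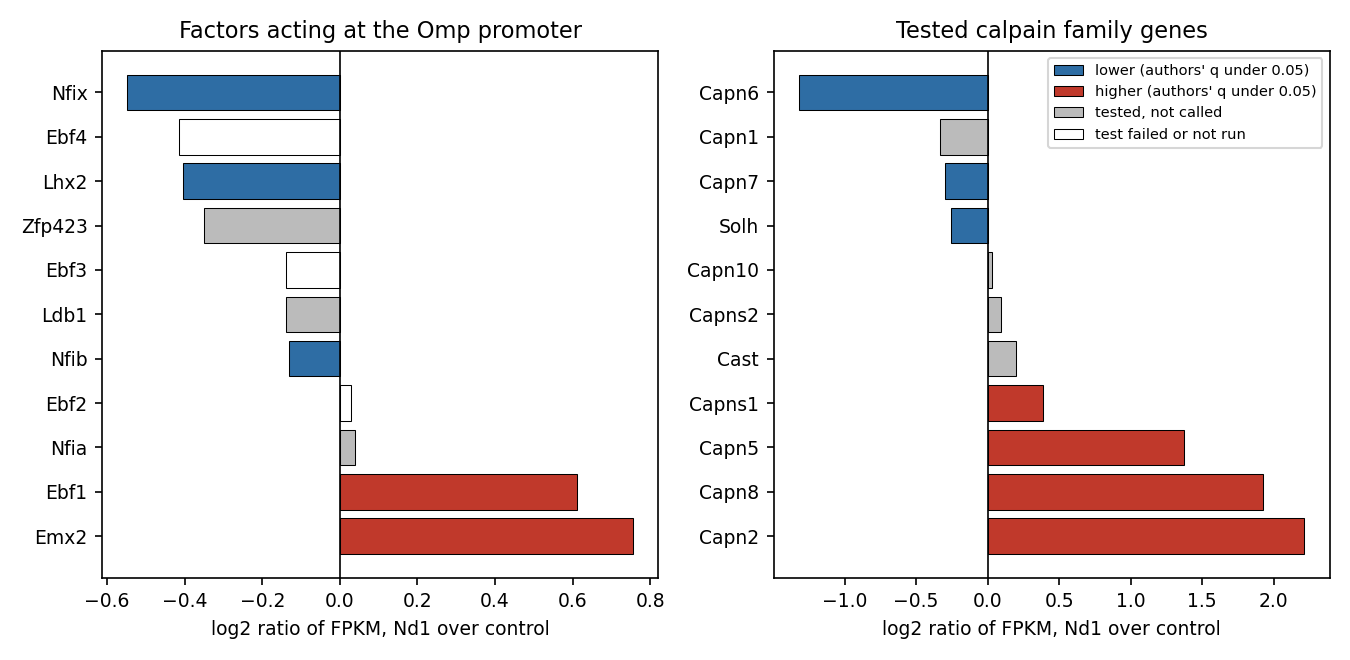
Log2 ratio of FPKM, Nd1 over control, coloured by the authors' call. The left panel holds 11 factors listed for the Omp promoter, partners of such factors included. The right panel holds the 11 tested calpain family genes. The factors lie between -0.55 and 0.76, and Capn5 at 1.37 has the largest ratio of the calpains after Capn2 and Capn8.

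Genes of the processes that OMP protein has been tied to were called in both directions, and none fell as far as Omp. This list joins Bex genes, calcium extrusion genes and the cyclic AMP pathway. Of 20 tested members 10 were called lower, 4 were called higher and 6 were not called in the authors' deposited table, with a median log2 ratio of -0.48. With the p-values adjusted again over loci of at least 1 FPKM on average, 2 in place of 4 were higher. Over all tested loci 19.2% were called lower and 15.1% higher as deposited. Of the 10 falls 8 are also in the list of mature neuron markers. Among the calcium exchanger and pump genes 3 fell and 3 rose. Among the falls, Adcy3 stood at 496 FPKM in Nd1 and 888 FPKM in control, Cnga2 at 486 FPKM in Nd1 and 859.5 FPKM in control, and the sodium-calcium exchanger Slc8a1, named after its value was seen, at 92.8 FPKM in Nd1 and 141 FPKM in control. Calm2 and Calm3, which encode calmodulin, were not called, with Calm2 at 974 FPKM in Nd1 and 1107 FPKM in control and Calm3 at 459.96 FPKM in Nd1 and 399 FPKM in control.

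In the full table the rises were those of the calcium pump genes Atp2b4 (16.8 FPKM in Nd1 and 10.7 FPKM in control) and Atp2b3 (0.507 FPKM in Nd1 and 0.142 FPKM in control), the exchanger Slc8a2 (0.821 FPKM in Nd1 and 0.302 FPKM in control) and Bex4 (2.73 FPKM in Nd1 and 1.08 FPKM in control). Atp2b3 and Slc8a2 are those below the 1 FPKM filter. The Bex genes described as OMP partners, named after their values were seen, had no call. Bex2 stood at 64.1 FPKM in Nd1 and 54.4 FPKM in control, and Bex1 at 6.57 FPKM in Nd1 and 4.13 FPKM in control (q = 0.0545 in the authors' deposited table). Gnal, the olfactory G protein alpha subunit, stood at 924 FPKM in Nd1 and 1672 FPKM in control, and its test failed.

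Markers of other cells moved to differing extents between the groups, and their part in the values of Omp and Capn5 was not tested. Over all tested loci 19.2% were called lower and 15.1% higher. Of 15 tested markers of immature olfactory sensory neurons 11 were called higher and 1 lower in the authors' deposited table, and their summed level was 1250 FPKM in Nd1 and 805 FPKM in control. Gng8, a G protein subunit of immature neurons named after its value was seen, had the largest ratio of the list. It stood at 71.7 FPKM in Nd1 and 3.11 FPKM in control. The neuronal tubulin Tubb3 stood at 453 FPKM in Nd1 and 247 FPKM in control. Stmn3 was not called, at 156 FPKM in Nd1 and 141 FPKM in control. The marker called lower was Stmn4, at 96.7 FPKM in Nd1 and 137 FPKM in control. Basal and progenitor markers summed to 7.998 FPKM in Nd1 and 14.5 FPKM in control, with 5 of 6 tested called lower. Sustentacular cell markers summed to 334 FPKM in Nd1 and 388 FPKM in control, with 5 of 12 lower and 7 not called. Sult1d1 alone, not called, stood at 234 FPKM in Nd1 and 254 FPKM in control, so this sum rests largely on 1 gene. Gland and respiratory markers summed to 83.4 FPKM in Nd1 and 214 FPKM in control, with 7 of 8 lower and Obp1a higher. Of this sum Bpifa1 alone made 68.1 FPKM in Nd1 and 184 FPKM in control. Immune and blood cell markers summed to 17.9 FPKM in Nd1 and 51.7 FPKM in control, with 6 of 7 lower. The haemoglobin gene Hbb-b1 made 11.9 FPKM of this in Nd1 and 22.7 FPKM in control. Vascular and ensheathing cell markers summed to 11.1 FPKM in each group, with 1 of 7 higher and 1 lower. Obp1a and the T cell marker Cd3e are listed at 0 in control, and no marker in these lists at 0 in Nd1.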

How the data were processed

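Per the labels' protocols, olfactory epithelia were dissociated with papain, cells were sorted, and libraries of polyadenylated RNA were made with the Illumina TruSeq kit. Per the submitters' processing notes, Bowtie, Cuffdiff 1.3.0 and mm9 were used. No source used here states the annotation or the filters. In their table the authors deposited 1 pooled FPKM per group, with their log2 fold change, p-value and q-value. Depth and spread between libraries are unknown, no value column per library exists (0 were left unused), and no new test was run. Calls are the authors', at a q-value under 0.05, over 14841 tested loci (12711 were not tested and 616 failed). The sign of the deposited test statistic is opposite to that of the fold change in both members, so directions were read from FPKM. A fold change printed here is the ratio of the deposited FPKM values.

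A symbol with several loci is represented in gene lists by its locus of highest mean FPKM. List medians use tested members of at least 0.5 FPKM on average. Both genes, the lists and the naming rule were chosen with earlier results of these data known. The rule names the members, all loci within 0.5 Mb, the 10 loci of nearest change among those of at least 100 FPKM in control, the 5 most abundant loci per group, up to 6 genes per pathway list and 3 per marker list, plus called genes that complete a count of 5 or fewer. A few genes that the rule would name are not reported here. Coordinates follow the table (mm9), counted from 1. The relation of both genes was read from GENCODE M21, of another build. Alternatives were other scalings, pseudocounts of 1 and 5, a filter at 1 FPKM and a q-value threshold of 0.01. The adjustment and scaling steps were tested on simulated data. Python 3.11.15, pandas 2.3.3, numpy 2.4.6 and matplotlib 3.10.9 were used.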

Additional observations from a re-analysis of the deposited data

How the results depend on the processing

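No paired analysis was possible because the table holds 1 pooled value per group, and for the same reason leaving out a replicate was not run. No alternative turned a direction. A pseudocount cannot change the sign of a log2 ratio. The scalings put the median log2 ratio of tested loci between 0 and 0.062, from -0.069 as deposited. These are small shifts beside the changes of Omp and Capn5. The log2 ratio of Omp, -2.755 as deposited, was -2.69 with the median of tested loci set to 0, -2.62 at equal FPKM sums, -2.65 at equal sums without odorant receptors, -2.55 after quantile normalization, -2.75 with a pseudocount of 1 and -2.74 with a pseudocount of 5. That of Capn5, 1.37 as deposited, was 1.44, 1.50, 1.48, 1.41, 1.31 and 1.11 under the same alternatives in that order. Both calls held when p-values were adjusted again over tested loci of at least 1 FPKM on average. Setting the median to 0 moved the list medians to -0.067 (promoter factors), -0.41 (partners, calcium and cyclic AMP genes), 0.16 (calpains) and -0.61 (mature markers). With the 1 FPKM filter 2 in place of 4 members of the partner list were higher, since fewer of them are tested. At q under 0.01, 1 in place of 3 calpains was lower. The other counts of calls moved by at most 1.5 times. Without values per library, neither the spread nor the allele difference within the control group can be measured.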

Other observations

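Other spans of the table also hold loci of opposite direction. A span is shared by 2 or more loci in 2438 cases, and 1260 spans hold at least 2 tested loci. In 31 of these, 2.46%, at least 1 locus was called higher and 1 lower in the authors' deposited table. Of the 162 spans with 2 or more called loci, these are 19.1%. Ordered by the distance between the highest and the lowest called log2 ratio, the span of Omp and Capn5 came 5th, with 4.13 between them. Above it stood the span of Palld, an actin-associated protein gene with 2 such rows of its own, at 7.52, and that of Herc6, which rose, and Pigy, which fell, at 5.69. The span of the interferon-induced GTPase Tgtp2 and the joined row of Ifi47 and Olfr56 had 5.56, and that of Fam183b and Olfr314 had 5.43. These spans were chosen for their differences, so the values are a description.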
